A study of Homo sapiens with 24 samples.

Results

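The transcripts described here are those encoded in the mitochondrial genome, taken as every row of the deposited expression table whose gene name begins with MT-. They number 37 of 60504 rows: 13 mRNAs, 2 ribosomal RNAs (rRNAs) and 22 transfer RNAs (tRNAs), by the gene type given in the table. The study lowered GCDH, the mitochondrial glutaryl-CoA dehydrogenase of lysine breakdown, with a small interfering RNA (siGCDH) and compared each culture with cells given a control RNA (siControl). RNA was taken 48 h after transfection from A375, a melanoma line (2 batches, each with siControl and siGCDH), SK-Hep1, a line from a liver tumour, and cells labelled SKBR3, the name of a breast cancer line, with 3 libraries in each of the 8 groups. A375 batch 1 was made with a 3′ tag kit, which reads the stretch next to the A tail. The other 18 libraries came from poly(A)-selected RNA and a directional kit that reads along the whole transcript, called full-length below. The cells were plated in triplicate wells, and no label says that they came from separate cultures, so the p-values measure only the spread between these libraries, which may be technical.

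The mitochondrial genome is a small circle that is copied into long RNAs from both strands. These are cut apart mostly at the tRNAs that lie between the genes, and most of the mRNAs receive short A tails, which in several genes also complete the stop codon. All 13 mRNAs encode subunits of the respiratory chain or of ATP synthase, whose other subunits come from nuclear genes, and the rRNAs and tRNAs serve the ribosomes inside the organelle.

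Several members overlap or end in ways that bear on how reads are assigned, so these stretches are shown first. All are from the GRCh38 mitochondrial sequence with GENCODE 29 gene models, in which all 37 names were found. MT-ATP8 and MT-ATP6 are read from 1 RNA and share 46 bases, and MT-ND4L and MT-ND4 share 7 bases. Both overlaps are shorter than the reads of 75 bases, so a full-length read that touches the capitals also covers bases outside them.
MT-ATP8 and MT-ATP6, chrM:8515-8584, plus strand, shared bases in capitals: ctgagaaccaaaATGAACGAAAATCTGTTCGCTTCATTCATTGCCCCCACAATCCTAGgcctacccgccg
MT-ND4L and MT-ND4, chrM:10748-10778, plus strand, shared bases in capitals: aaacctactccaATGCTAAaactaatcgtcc
The next 4 are the last bases of annotated genes, shown because both kits depend on the A tail, with the annotated stop codon, or the part of it that the genome encodes, in capitals. MT-CO3 and MT-ND1 carry only part of it, which the tail completes. MT-CO1 and MT-ND6 are annotated with unusual stop codons, their RNAs are known to run on past the annotated end, and that of MT-ND6 is known to carry little or no tail.
MT-CO1, chrM:7431-7445, plus strand: tacataaaatctAGA
MT-CO3, chrM:9978-9990, plus strand: tgatgagggtctT
MT-ND1, chrM:4249-4262, plus strand: ccccctcaaaccTA
MT-ND6, chrM:14149-14163, minus strand: gctcgggggaatAGG

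The values are TPM (transcript abundance scaled to a fixed library total), a level per transcript length. In the 3′ tag libraries of A375 batch 1 reads come from the end of a transcript whatever its length, so levels of different genes, and pool shares and ratios between genes, are not comparable there. They keep no record of sequencing depth, so the depth is unknown and no counting interval is given. A higher mitochondrial share and a smaller remainder of nuclear transcripts cannot be told apart on this scale, nor can a change in some cells and in all cells of these bulk samples, as fewer cells of a type and less RNA per cell give the same value. GCDH lay at 6.69, 4.76 and 1.77 TPM in siControl and 1.50, 0.94 and 0.31 in siGCDH in A375 batch 1, and at 20.65, 22.70 and 19.31 against 3.91, 3.41 and 3.83 in batch 2. It lay at 9.79, 9.46 and 8.97 against 2.77, 3.25 and 2.25 in SK-Hep1, and at 22.03, 22.65 and 22.77 against 5.60, 4.61 and 7.60 in SKBR3. The groups did not overlap in any of the 4, and came closest in A375 batch 1. The SKBR3 label was not borne out by ERBB2, the amplified receptor of that line, or by keratin KRT19. In siControl ERBB2 stood at 25.5 TPM, below A375 batch 2 (32.7) and SK-Hep1 (46.4), and KRT19 stood at 0.227. Other markers of that line are not reported here. The libraries are called by their label below. SOX10, a melanocyte lineage factor, stood at 148 and 457 TPM in siControl A375 batches 1 and 2 and at 0 in the siControl libraries of the other lines, and in SK-Hep1 the liver genes ALB and APOA1 were listed at 0.

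The mitochondrial mRNA pool more than doubled in SKBR3 after GCDH knockdown, and it did not do so in any other line. Together the 13 mRNAs took 1.84%, 1.89% and 1.78% of all TPM in the SKBR3 siControl libraries and 4.33%, 4.55% and 4.37% in the siGCDH libraries, a ratio of means of 2.41. In SK-Hep1 they took 5.13%, 5.62% and 5.81% in siControl and 5.24%, 5.54% and 5.54% in siGCDH. These SK-Hep1 groups overlap, and leaving out siControl replicate 3 or siGCDH replicate 1 turned the difference of -0.083 percentage points to 0.061 or 0.016.

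In A375 the pool was lower after knockdown in both batches, by unequal amounts. Batch 2 gave 1.76%, 1.78% and 1.89% in siControl and 1.72%, 1.62% and 1.68% in siGCDH, a ratio of means of 0.923. Batch 1 gave 3.20%, 3.78% and 3.004% in siControl and 2.42%, 2.02% and 2.02% in siGCDH, a ratio of 0.647. Neither batch had overlapping groups. In batch 1, 4 rows annotated as long intergenic RNA, near ribosomal RNA on chromosome 21, moved in the opposite direction. They were picked for a high mean over the batch 1 libraries. They went from 17.1% ± 2.07 (SD, n = 3) to 33.0% ± 1.65 of all TPM. They stayed under 0.1% of TPM in every other group, a contrast that the choice of rows favours. Whether their reads came from ribosomal RNA was not tested. A larger share for these rows leaves less of the fixed TPM total for all others, and the part of this in the lower mRNA share was not tested. Taken over protein-coding rows alone, the batch 1 share went from 4.45% to 3.60%, a ratio of 0.809.

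**Figure D1:**
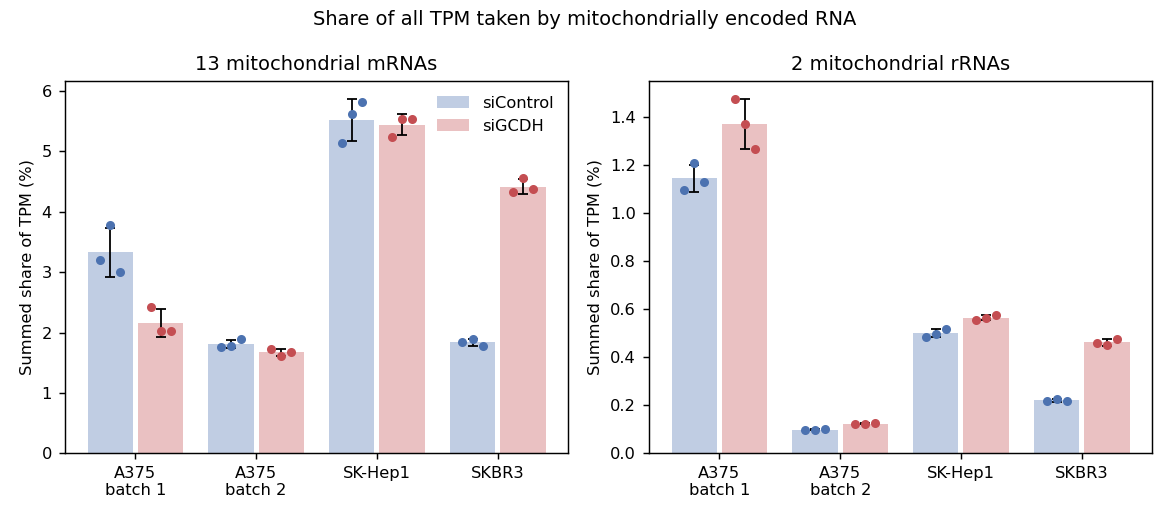
Summed share of all TPM (percent, linear axes from 0) taken by the 13 mitochondrial mRNAs (left) and the 2 mitochondrial rRNAs (right) in each line or batch. Bars are means of 3 libraries, error bars are SD and points are libraries; the SKBR3 siGCDH libraries at 4.33% to 4.55% stand above the SKBR3 siControl libraries at 1.78% to 1.89%.

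Each member was tested with limma on log2(TPM + 1) in a fit over all genes whose mean over the fitted libraries reached 1 TPM, and a gene is called when its Benjamini-Hochberg adjusted p is under 0.05. All 13 mRNAs and both rRNAs passed that filter in every comparison, while the 22 tRNAs did not. In SKBR3 13 of 13 mRNAs rose, where 47.3% of all genes tested rose (62.1% changed in either direction). Their median difference was 1.28 on the log2 scale, beside 0.29 for all genes tested. The 13 calls held in each of the 3 other scalings, with medians from 1.04 to 1.36.

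Genes at 1 TPM or more also became more numerous in SKBR3, from 15164 ± 21.5 (SD, n = 3) in siControl to 17174 ± 70.8 in siGCDH, and the part of this in the result was not tested. Of all 16494 genes tested in SKBR3, 15.8% had a difference at or above that of the lowest mitochondrial mRNA (0.96). Among 702 other genes averaging 200 TPM or more in these libraries, the median difference was -0.13, and 4 (0.57%) were at or above it. Those 4, chosen after their values were seen, were SNHG19 (1.83), the MIR4800 row (1.58), DDX17 (1.05) and LUC7L3 (1.03). The MIR4800 row was not called (± 0.62 SE, limma adjusted p = 0.058). SNHG19, MIR4800 and DDX17 averaged 147, 117 and 198 TPM in siControl, so they reached 200 TPM only through the siGCDH libraries.

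In SK-Hep1 3 mRNAs rose (MT-ND1, MT-ND2, MT-ND4) and 4 fell (MT-ATP6, MT-ATP8, MT-CO3, MT-CYB), where 37.3% of all genes rose and 18.2% fell (55.5% changed). Their median difference was 0.00054, beside 0.18 for all genes. The split was 4 higher and 2 lower after quantile normalization, and 2 higher and 5 lower after scaling to a common median. Without siControl replicate 2, siGCDH replicate 2 or siGCDH replicate 3 the calls fell from 7 to 4. The calls of MT-ND1 and MT-ND2 held in every alternative run; those of MT-CO3, MT-CYB and MT-ND4 were lost in several, and MT-CYB changed sign to 0.072 after quantile normalization.

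In A375 batch 2 3 mRNAs rose (MT-CO2, MT-ND3, MT-ND6) and 5 fell (MT-CO1, MT-CO3, MT-ND1, MT-ND4, MT-ND4L), where 17.9% of all genes rose and 15.7% fell (33.6% changed). The median was -0.11, beside 0.024 for all genes. MT-CO1, MT-CO3 and MT-ND4 were called in every alternative run, and the other calls were each lost in at least 1. Without siGCDH replicate 1 the calls fell from 8 to 5.

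In A375 batch 1 9 mRNAs fell and 0 rose, where 6.73% of all genes fell and 1.18% rose (7.91% changed). MT-CO1, MT-CYB, MT-ND2 and MT-ND5 did not pass. The members' median was -0.71, beside -0.20 for all genes. The 9 calls depended on the scaling: 1 remained under quantile normalization (MT-ND4L), 1 under a common median (MT-ND3) and 2 after rescaling over nuclear protein-coding genes (both of these), and limma without a trend left 0, with 9 at an unadjusted p under 0.05. Leaving out siControl replicate 2, siControl replicate 3, siGCDH replicate 2 or siGCDH replicate 3 left 3, 4, 3 and 3 calls. MT-CO1 and MT-ND2 changed sign under quantile normalization, to 0.12 and 0.15.

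**Figure D2:**
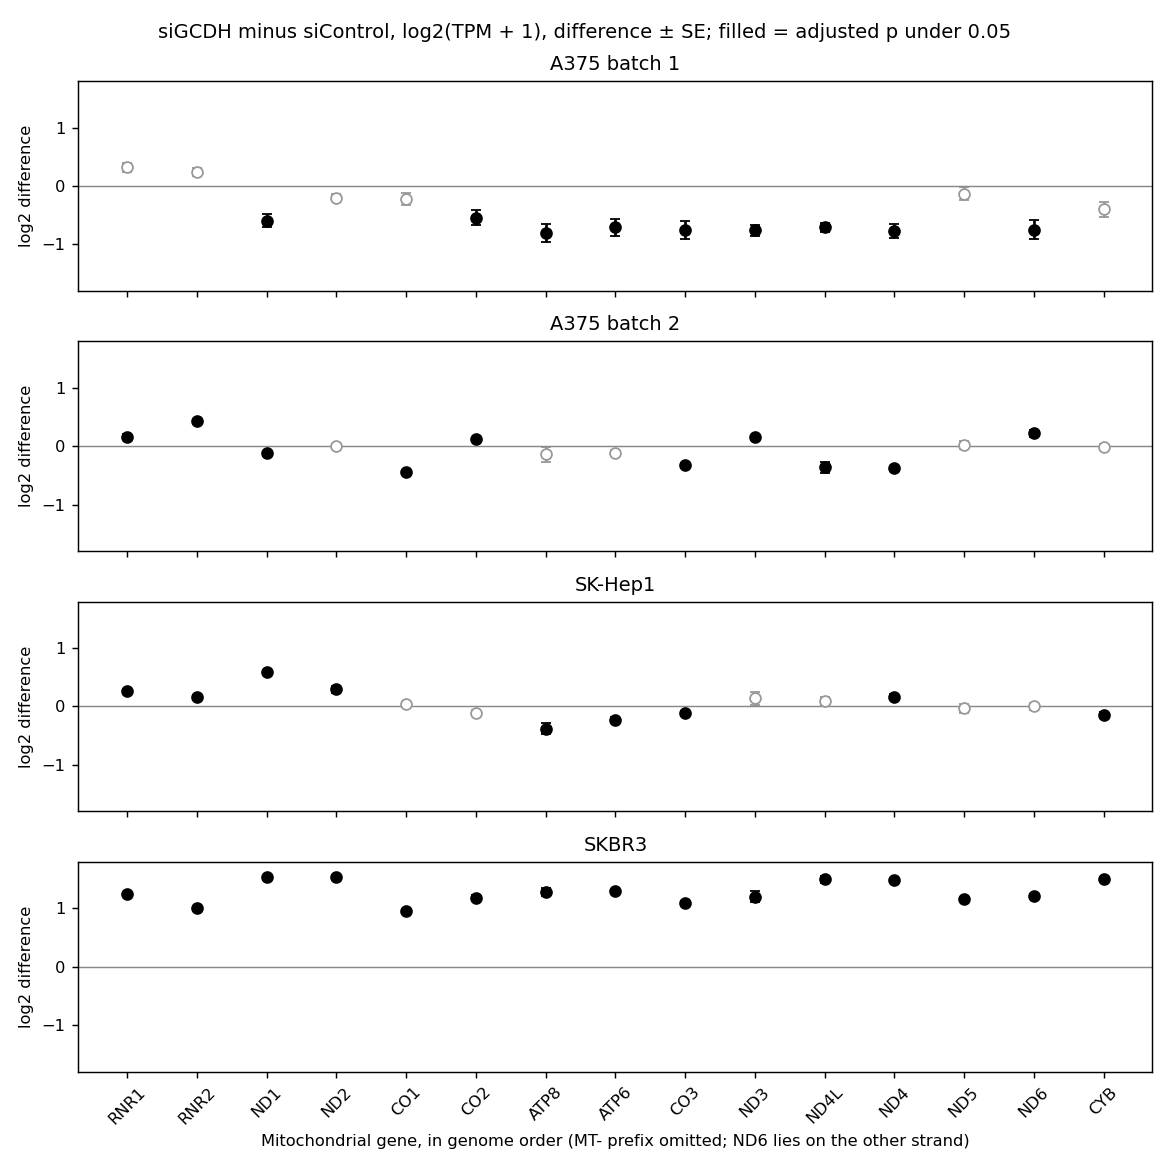
Difference of siGCDH minus siControl on the log2(TPM + 1) scale for the 2 rRNAs and 13 mRNAs in genome order, 1 panel per line or batch, with SE bars; filled points have an adjusted p under 0.05. SKBR3 points lie between 0.96 and 1.54, A375 batch 1 mRNAs between -0.80 and -0.13.

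Complex I, the NADH dehydrogenase that feeds electrons into the chain, takes 7 of the mRNAs. MT-ND1 (chrM:3307-4262), a membrane subunit next to the quinone site, had the highest difference of the members in SKBR3. Its SKBR3 values were 856, 857 and 835 TPM in siControl and 2429, 2488 and 2483 TPM in siGCDH, a log2 difference of 1.54 ± 0.024 (SE, limma adjusted p = 7.65e-08). The 3 siGCDH libraries stood apart from all siControl libraries with little spread. In SK-Hep1 it went from 1653, 1789 and 1864 TPM to 2559, 2719 and 2678 TPM, 0.59 ± 0.048 (limma adjusted p = 4.18e-05). There it was the mRNA with the highest difference too, again without overlap.

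MT-ND1 was lower in A375 after knockdown. Batch 2 held 627, 602 and 655 TPM in siControl and 585, 562 and 579 in siGCDH (-0.12 ± 0.038, limma adjusted p = 0.0406), a small difference whose call was lost in several alternatives. Batch 1 held 743, 849 and 747 TPM in siControl and 591, 488 and 473 in siGCDH (-0.59, limma adjusted p = 0.0194).

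MT-ND2 (chrM:4470-5511), a membrane subunit of the proton-pumping arm, followed MT-ND1 in SKBR3 and SK-Hep1. It went from 1127, 1187 and 1164 TPM to 3286, 3470 and 3310 TPM in SKBR3 (1.53 ± 0.031). In SK-Hep1 it went from 2714, 2951 and 3168 TPM to 3472, 3707 and 3634 TPM (0.29 ± 0.056, limma adjusted p = 0.00278). Neither pair of groups overlapped, while in A375 batch 2 its means were equal within their spread, 2466 ± 67.0 and 2466 ± 136 TPM (SD, n = 3).

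MT-ND4 and MT-ND4L, also membrane subunits, sit on 1 shared RNA. MT-ND4 (chrM:10760-12137) went from 1168, 1217 and 1158 TPM to 3190, 3371 and 3338 in SKBR3 (1.48 ± 0.032). The A375 batch 2 values went from 1311, 1336 and 1406 TPM to 1085, 1006 and 1045 (-0.37 ± 0.038, limma adjusted p = 0.000424). MT-ND4L differed by 1.497 and -0.36 in the same lines, close to its partner. Its call in A375 batch 2 was lost when any 1 of the 3 siControl libraries was left out. In SK-Hep1 MT-ND4 rose by 0.16 and MT-ND4L did not pass (0.09, limma adjusted p = 0.38).

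The remaining 3 are MT-ND3, MT-ND5 and MT-ND6, all membrane subunits. In SKBR3 they differed by 1.20, 1.17 and 1.22. MT-ND6 (chrM:14149-14673) is the only mRNA on the other strand, and in SKBR3 it went from 478, 501 and 478 TPM to 1100, 1133 and 1163 TPM. The files do not say whether strand was used in counting, so reads from RNA opposite MT-ND6 cannot be told apart from its own. In A375 batch 2 MT-ND6 rose by 0.22 and MT-ND3 by 0.16, MT-ND5 stood at 0.02 without passing, and the first 2 calls were lost in several alternatives. In SK-Hep1 none of the 3 passed (0.14, -0.03 and 0.00 in the order MT-ND3, MT-ND5, MT-ND6), and without siControl replicate 1 the MT-ND3 and MT-ND6 differences were below 0.

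Complex III, which passes electrons to cytochrome c, has a single mitochondrial gene, MT-CYB (chrM:14747-15887), for cytochrome b. In SKBR3 it went from 848, 829 and 816 TPM to 2288, 2387 and 2404 TPM, 1.504 ± 0.029 (limma adjusted p = 2.05e-07). All 3 siGCDH libraries were more than double each siControl library. It fell by 0.14 in SK-Hep1 (limma adjusted p = 0.0303) and stood at -0.01 in A375 batch 2 and -0.40 in batch 1, without passing in either batch.

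Complex IV, cytochrome c oxidase, has its 3 catalytic core subunits here. MT-CO1 (chrM:5904-7445), which binds the heme and copper of the reaction centre, had the lowest difference of the 13 in SKBR3. It went from 2141, 2193 and 2041 TPM to 4146, 4235 and 4039 TPM, 0.96 ± 0.033 (limma adjusted p = 1.69e-06). A375 batch 2 went from 1937, 1914 and 1957 TPM to 1448, 1373 and 1466 TPM, -0.44 ± 0.030 (limma adjusted p = 6.42e-05). There the 2 groups were far apart relative to their spread, and the call held in every alternative run. In SK-Hep1 the groups overlapped (0.04, limma adjusted p = 0.497).

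MT-CO2, the subunit that takes electrons from cytochrome c, was the most abundant mitochondrial mRNA in SK-Hep1 and SKBR3. SKBR3 held 3675, 3800 and 3392 TPM in siControl and 8084, 8509 and 8107 TPM in siGCDH (1.19 ± 0.043). It moved opposite to MT-CO1 in A375 batch 2, from 2055, 2047 and 2123 TPM to 2284, 2256 and 2221 TPM (0.12 ± 0.024, limma adjusted p = 0.00821). MT-CO3, the third core subunit, rose by 1.09 in SKBR3 and fell by 0.32 in A375 batch 2 and by 0.11 in SK-Hep1. In A375 batch 1 MT-CO2 and MT-CO3 fell by 0.54 and 0.76, and MT-CO1 stood at -0.22 without passing.

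ATP synthase has MT-ATP6, part of its proton channel, and MT-ATP8, a small stalk subunit. In SKBR3 MT-ATP6 (chrM:8527-9207) went from 2760, 2780 and 2796 TPM to 6681, 6980 and 6820 TPM, 1.296 ± 0.022 (limma adjusted p = 1.21e-07). In SK-Hep1 it went the other way, from 7674, 8139 and 8764 TPM to 6776, 7055 and 7044 TPM (-0.23 ± 0.047, limma adjusted p = 0.00372). MT-ATP8 (chrM:8366-8572) moved with it: 1.28 in SKBR3 and -0.38 in SK-Hep1, and -0.71 and -0.80 for the pair in A375 batch 1. The SK-Hep1 calls were lost in the joint fit of all 24 libraries for MT-ATP6 and under quantile normalization for MT-ATP8. Neither passed in A375 batch 2 (-0.11 and -0.14).

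The genes on a shared RNA kept nearly the same ratio under knockdown within each line. MT-ND4L over MT-ND4 lay between 0.501 and 0.559 in the 6 full-length groups, and MT-ATP8 over MT-ATP6 between 0.294 and 0.373. With the 3′ tag kit the same ratios were 1.93 and 2.02, and 1.43 and 1.34, for siControl and siGCDH. Members of these pairs lie on 1 RNA and are not independent of each other.

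The rRNAs did not follow the mRNAs in every line. MT-RNR1 (the 12S rRNA of the small ribosomal subunit, chrM:648-1601) and MT-RNR2 (the 16S rRNA of the large subunit, chrM:1671-3229) rose in SKBR3, by 1.25 and 1.00, and in SK-Hep1, by 0.26 and 0.16. They rose in A375 batch 2 as well, by 0.16 and 0.42, where 3 mRNAs rose, 5 fell and 5 did not pass. The MT-RNR2 values there were 647, 637 and 661 TPM in siControl and 878, 869 and 865 TPM in siGCDH (± 0.027 SE, limma adjusted p = 4.82e-05), with no overlap, and this call held in every alternative run.

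In A375 batch 1 MT-RNR2 stood at 8456, 9486 and 8751 TPM in siControl and 11171, 10602 and 9776 TPM in siGCDH. These groups did not overlap, but the differences of 0.24 for MT-RNR2 and 0.32 for MT-RNR1 did not pass (limma adjusted p = 0.0594 and 0.0551). After each of the 3 other scalings both passed, at 0.44 to 0.55 and 0.52 to 0.65. The ratio of rRNA to mRNA TPM went from 0.346 ± 0.0283 to 0.638 ± 0.0364 (SD, n = 3) in batch 1, from 0.0540 to 0.0742 in batch 2, from 0.0908 to 0.104 in SK-Hep1 and from 0.120 to 0.105 in SKBR3. Both kits select or prime on A tails, so an rRNA level here is of the RNA that passed that step. A list of small RNAs without A tails took 0.0152% of TPM in SKBR3 siControl and 0.0217% in siGCDH, 0.0133% and 0.0223% in A375 batch 1, 0.00813% and 0.00930% in batch 2, and 0.00599% and 0.00439% in SK-Hep1. The mean of this share was higher after knockdown in SKBR3 and both A375 batches, with overlapping groups in both batches, and lower in SK-Hep1. Its part in the rRNA levels was not tested.

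All 22 tRNA rows were listed at 0 in all 24 libraries. Their lengths run from 59 to 75 bases against reads of 75 bases, and the 2 below, 1 of them the shortest, show how short the targets are.
MT-TS2, serine, chrM:12207-12265, plus strand: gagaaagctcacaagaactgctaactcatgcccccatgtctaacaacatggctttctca
MT-TK, lysine, chrM:8295-8364, plus strand: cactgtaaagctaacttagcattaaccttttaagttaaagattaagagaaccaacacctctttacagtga
Of all 1094 table rows whose longest GENCODE 29 transcript is at most 75 bases, 1088 (99.5%) were listed at 0 in every library. Among rows of 76 to 100 bases it was 1362 of 1540 (88.4%). The 0 of the tRNA rows therefore cannot be read as a level of the tRNAs.

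The difference between lines in the response to knockdown was tested directly by an interaction term. SKBR3 minus SK-Hep1 was above 0 for 13 of 13 mRNAs, where 25.0% of all genes were (39.5% called in either direction), from 0.92 for MT-CO1 to 1.65 for MT-ATP8 and MT-CYB. A375 batch 2 minus SKBR3 was below 0 for 13 of 13, where 36.8% of all genes were and 14.5% were above (51.4% called), from -0.997 for MT-ND6 to -1.86 for MT-ND4L. These tests share libraries with each other and with the comparisons above. All 13 calls held in every alternative run in both.

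A375 batch 2 minus SK-Hep1 gave 6 mRNAs below 0 and 1 above it, beside 28.8% and 17.4% of all genes (46.2% called). MT-ND1 (-0.71 ± 0.064), MT-ND4 (-0.53), MT-CO1 (-0.48), MT-ND4L (-0.45), MT-ND2 (-0.30) and MT-CO3 (-0.22) were below, and MT-CO2 (0.22) was above. MT-ATP6 (0.12), MT-ATP8 (0.24), MT-CYB (0.13), MT-ND3 (0.02), MT-ND5 (0.05) and MT-ND6 (0.22) did not pass. The split became 2 above and 5 below under quantile normalization and 4 and 4 under a common median. A375 batch 2 minus batch 1, which also contrasts the kits, called 4 mRNAs above 0, MT-ND6 (0.97), MT-ND3 (0.92), MT-CO2 (0.66) and MT-ND1 (0.47), beside 4.78% of all genes above 0 and 0.447% below (5.23% called).

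That batch contrast was unsteady. Leaving out batch 1 siGCDH replicate 1 raised its calls to 8. Leaving out batch 2 siControl replicate 1, 2 or 3 or siGCDH replicate 1 or 3 lowered them to 2, 1, 2, 2 and 2. The remaining 9 mRNAs, MT-ATP6, MT-ATP8, MT-CO1, MT-CO3, MT-CYB, MT-ND2, MT-ND4, MT-ND4L and MT-ND5, did not pass and lay between -0.21 and 0.66.

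Control cells of the 3 lines, taken 48 h after transfection with the control RNA, differed in their mitochondrial RNA. Within the full-length kit, SK-Hep1 had the highest level of every mRNA: 13 of 13 were above A375 batch 2, where 29.3% of all genes were higher and 45.7% lower (75.0% called), and 13 of 13 above SKBR3, where 28.9% were higher and 50.5% lower in SK-Hep1 (79.3% called). Against A375 batch 2 the differences ran from 0.25 for MT-ND2 to 2.35 for MT-CO2, with a median of 1.69. MT-RNR2 differed by 2.76 and MT-RNR1 by 0.91. Relative to SK-Hep1, SKBR3 was lower by 0.94 (MT-ND3) to 1.97 (MT-ND4), with MT-RNR2 at -1.40 and MT-RNR1 at -0.20.

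SKBR3 and A375 batch 2 were closer, and the mRNAs split between them: 6 were higher in SKBR3 and 5 lower, where 40.5% and 34.5% of all genes were (75.1% called). MT-ND6 (1.01), MT-CO2 (0.80), MT-ND5 (0.60), MT-ND1 (0.44), MT-CO3 (0.14) and MT-CO1 (0.13) were higher. MT-ND2 (-1.09), MT-ATP6 (-0.26), MT-ND4L (-0.22), MT-ND4 (-0.19) and MT-CYB (-0.11) were lower, and MT-ND3 (-0.09) and MT-ATP8 (-0.01) did not pass. MT-RNR2 and MT-RNR1 were higher in SKBR3 by 1.36 and 0.71. The MT-CYB, MT-ND4 and MT-ND4L calls were lost under quantile normalization, and that of MT-CYB also under a common median.

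**Figure D3:**
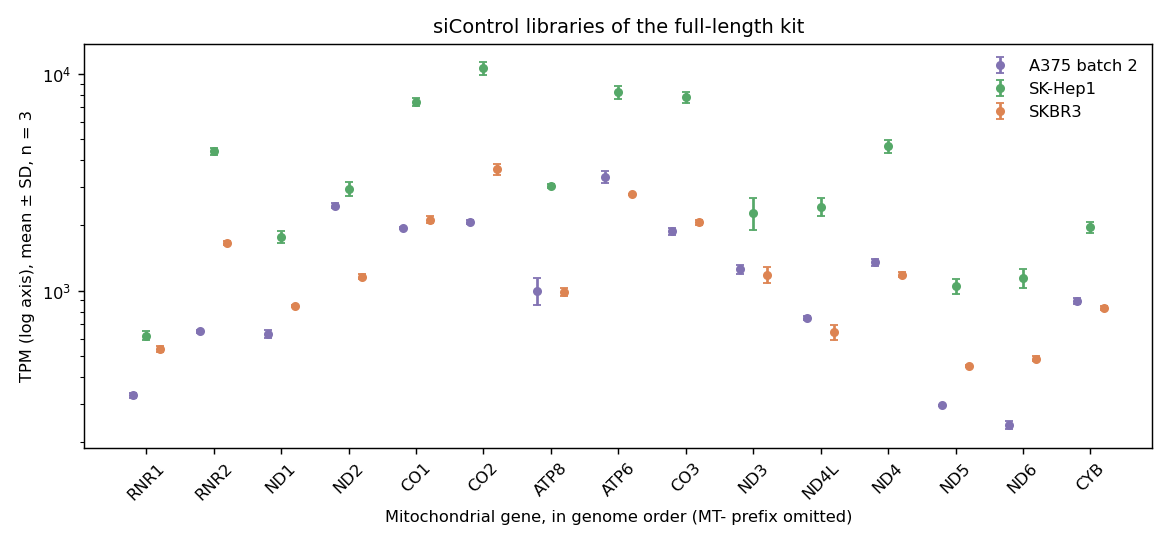
TPM (log axis) of the 15 detected mitochondrial genes in genome order in the siControl libraries of the full-length kit, as mean ± SD of 3 libraries. SK-Hep1 lies above both other lines at every mRNA, and MT-CO2 spans 2075 TPM in A375 batch 2 to 10575 TPM in SK-Hep1.

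The make-up of the pool, each mRNA as a percent of the summed TPM of the 13, changed with knockdown in every line. The mean share of MT-ND2 was higher, and that of MT-CO3 lower, after knockdown in both A375 batches, SK-Hep1 and SKBR3. For MT-CO3 the groups overlapped in A375 batch 1. Every other mRNA had a higher share in some of these sets and a lower share in others. This is a description with no test. In SKBR3, MT-CO1 went from 11.6% ± 0.0739 (SD, n = 3) to 9.38% ± 0.180 of the pool while MT-ND1 went from 4.63% to 5.59% and MT-ND2 from 6.32% to 7.60%. MT-ATP6, MT-ATP8 and MT-ND6 took about the same shares in both groups, at 15.1% and 15.5%, 5.38% and 5.43%, and 2.65% and 2.56%. A375 batch 2 had MT-CO1 go from 10.7% to 8.55% and MT-CO2 from 11.5% to 13.5%.

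SK-Hep1 kept its total while its make-up moved. MT-ND1 went from 3.20% ± 0.0199 to 4.88% ± 0.0365 of the pool and MT-ATP6 from 14.8% to 12.8%. By complex, the complex I mRNAs went from 1.62% to 1.86% of all TPM and the ATP synthase mRNAs from 1.12% to 0.932%. In A375 batch 1 MT-ND3 made up 27.3% and 24.9% of the pool and MT-ND2 14.0% and 18.8%, with MT-CO1 at 1.32% and 1.74%.

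**Figure D4:**
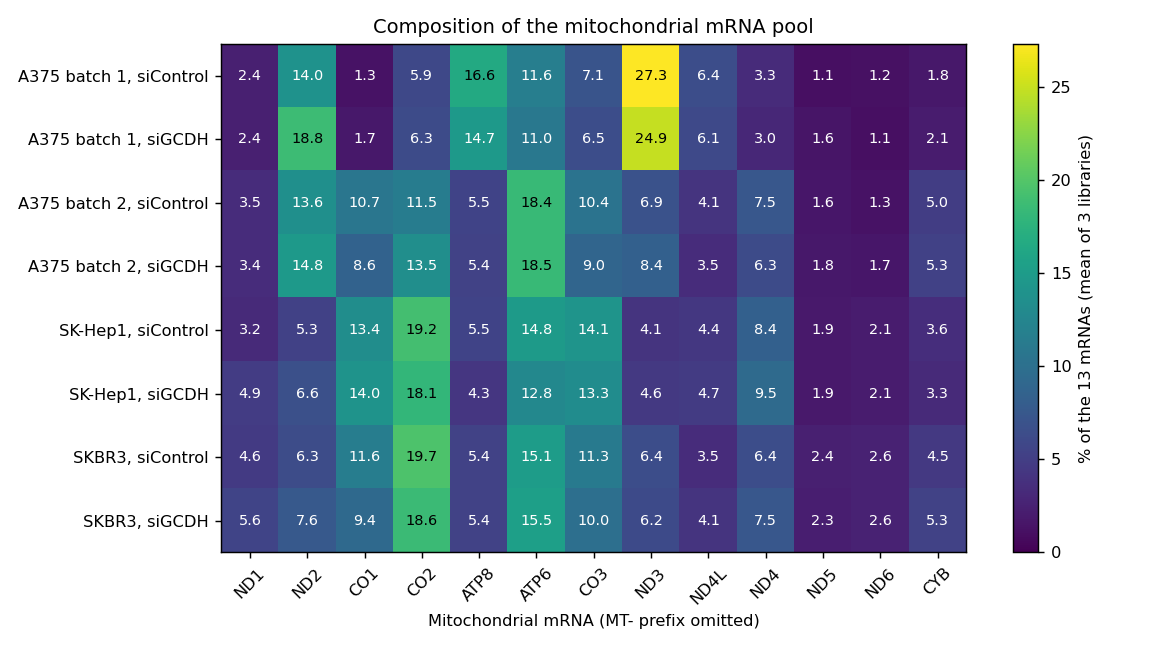
Each mitochondrial mRNA as a percent of the summed TPM of the 13 (mean of 3 libraries, colour scale and printed values) in the 8 groups. MT-ND3 leads in A375 batch 1, MT-ATP6 in batch 2 and MT-CO2 in SK-Hep1 and SKBR3.

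Copies of mitochondrial DNA in the nuclear genome can draw reads from the members. The 3 such rows with the highest mean TPM lie on chromosome 1 of GRCh38 as unprocessed pseudogenes: MTATP6P1 (chr1:633696-634376), MTND1P23 (chr1:629062-629433) and MTND2P28 (chr1:629640-630683). They match MT-ATP6, MT-ND1 and MT-ND2 at 98.5%, 99.4% and 98.4% of aligned bases. The window below holds 3 of the 10 mismatches between MT-ATP6 and its copy, in capitals, to show how few bases separate them.
MT-ATP6, chrM:8642-8701, plus strand: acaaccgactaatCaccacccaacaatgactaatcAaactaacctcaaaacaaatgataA
MTATP6P1, chr1:633811-633870, plus strand: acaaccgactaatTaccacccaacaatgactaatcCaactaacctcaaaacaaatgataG
MTATP6P1 stood at 0.211 to 0.235 of the MT-ATP6 level in the 6 full-length groups and at 0.0490 and 0.0536 in A375 batch 1. MTND2P28 stood at 0.0459 to 0.0515 of MT-ND2 in the full-length groups. MTND1P23 stood at 0.857 of MT-ND1 in A375 batch 1 siControl and 0.442 in siGCDH, and at no more than 0.00255 in any other group. When each gene was summed with its nuclear copies, all 165 member results kept their direction and their side of the threshold.

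**Figure D5:**
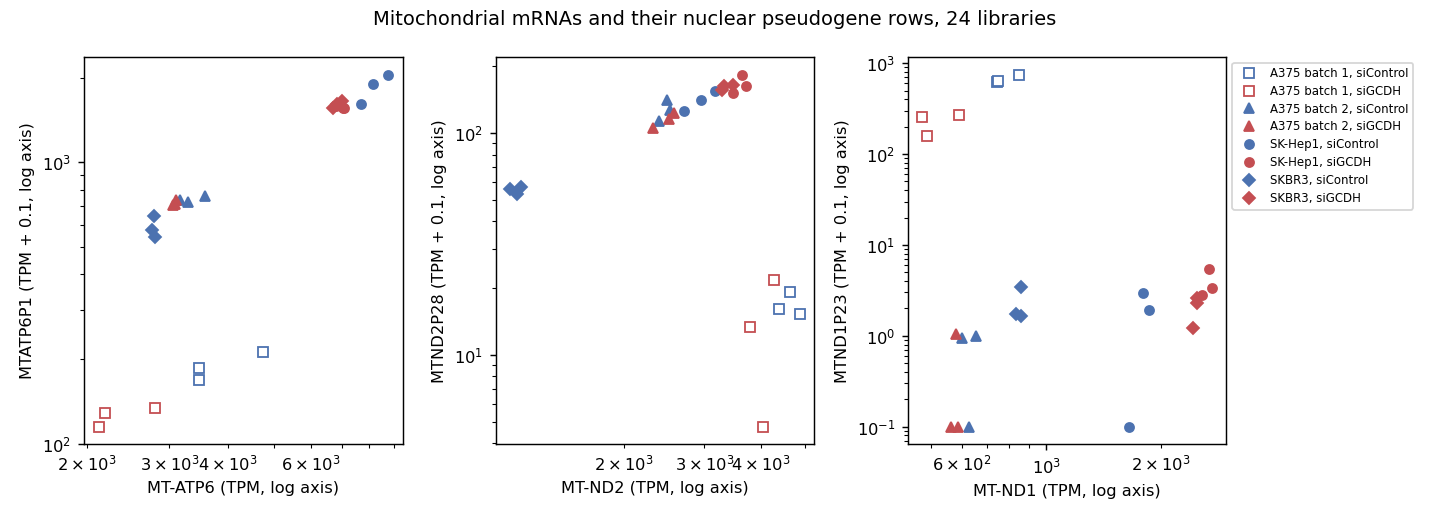
TPM of 3 nuclear pseudogene rows (TPM + 0.1, log axis) against the mitochondrial gene each copies (TPM, log axis) in the 24 libraries. Open squares, the 3′ tag libraries, lie apart from the full-length libraries in all 3 panels.

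Genes of the nucleus that make or service these RNAs were taken from 7 lists, 103 genes in all. Their counts are to be read beside all genes tested, of which 1.18% rose and 6.73% fell in A375 batch 1, 17.9% and 15.7% in batch 2, 37.3% and 18.2% in SK-Hep1, and 47.3% and 14.7% in SKBR3. Of 16 tested genes for mitochondrial transcription and its regulators in SKBR3, 2 rose and 4 fell, with a median of -0.011 beside 0.29 for all genes. TFAM, which packages the genome and starts transcription, stood at 148 ± 4.04 and 143 ± 9.24 TPM (SD, n = 3) in SKBR3 siControl and siGCDH. MRPL12, a ribosomal protein also tied to the polymerase, fell by 0.68 and the coactivator PPRC1 by 0.78, while MTERF2, a termination factor relative, rose by 0.59. In A375 TFAM fell in both batches, by 1.13 and 0.79, and MRPL12 fell in all 4 comparisons (by 0.96 and 0.69 in A375, by 0.44 in SK-Hep1). The MRPL12 call in A375 batch 1 was lost under each of the 3 other scalings (adjusted p by limma from 0.0622 to 0.119), which left TFAM as the 1 gene of the list called there. The transcription list had 0 higher and 3 lower of 16 in A375 batch 1, 2 and 3 of 16 in batch 2, and 4 and 5 of 15 in SK-Hep1. The SKBR3 split was 2 and 7 under quantile normalization, 1 and 8 under a common median and 5 and 4 after rescaling over nuclear protein-coding genes.

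For RNA processing, stability and decay, 27 genes were tested. The counts of higher and lower genes were 0 and 2 in A375 batch 1, 0 and 5 in batch 2, 9 and 6 in SK-Hep1, and 8 and 6 in SKBR3. The SKBR3 split moved to 5 and 10 under quantile normalization, 3 and 12 under a common median and 9 and 4 after rescaling over nuclear protein-coding genes, and that of SK-Hep1 to 9 and 8, 8 and 9, and 9 and 6. SLIRP, which stabilises mitochondrial mRNAs with its partner LRPPRC, fell by 1.03 and 0.59 in the A375 batches. RPUSD3, a pseudouridine synthase, fell by 1.39 and 0.91 there and by 0.99 in SKBR3. FASTK, founder of a family of mitochondrial RNA-binding proteins and required for MT-ND6 mRNA, rose by 0.59 in SK-Hep1 and 0.90 in SKBR3, where ERAL1, a 12S rRNA chaperone, fell by 1.03 and 0.88.

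In the replication and nucleotide supply list of 17, 0 rose and 2 fell in A375 batch 1, 5 and 4 in batch 2, 8 and 4 in SK-Hep1, and 5 and 5 in SKBR3. The balance turned with the scaling: under quantile normalization, a common median and rescaling, SKBR3 had 3 and 6, 4 and 8, and 7 and 3, and SK-Hep1 had 5 and 4, 5 and 4, and 8 and 4. TK2, the mitochondrial thymidine kinase, fell in A375 (by 2.62 and 1.03) and rose in SK-Hep1 (1.10) and SKBR3 (1.41). The interaction tests of TK2 gave -2.13 for A375 batch 2 minus SK-Hep1 (limma adjusted p = 1.98e-07) and -2.44 for A375 batch 2 minus SKBR3 (limma adjusted p = 9.99e-08).

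Few nuclear subunits of the members' complexes rose in SKBR3, where 47.3% of all genes rose and 14.7% fell. There 1 rose and 8 fell of 15 ATP synthase subunits, 1 and 7 of 9 complex III subunits, 1 and 5 of 11 complex IV subunits, and 2 and 1 of 7 core complex I subunits, beside 13 of 13 mitochondrial mRNAs that rose. More abundant nuclear genes fell than rose in SKBR3 as well: of 702 averaging 200 TPM or more, 167 rose and 360 fell, with a median of -0.13. ATP5MC2, a subunit of the rotor ring, fell by 2.12 in SKBR3 and 3.07 in SK-Hep1, and COX7C, a small complex IV subunit, fell by 0.77 in SKBR3. In SK-Hep1, where 37.3% of all genes rose and 18.2% fell, the same lists gave 9 and 1, 3 and 1, 7 and 1, and 6 and 1. A375 batch 2, with 17.9% of all genes higher and 15.7% lower, gave 0 and 7, 0 and 3, 1 and 6, and 0 and 4, with UQCRC1 of complex III at -0.97.

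In A375 batch 1, with 1.18% of all genes higher and 6.73% lower, the lists gave 0 and 11, 0 and 4, 0 and 10, and 0 and 2. Under the other scalings the ATP synthase list kept 2 to 3 lower and the complex IV list 1 to 2. In SKBR3 the complex I list turned to 0 higher and 4 lower under a common median, and the other 3 lists kept more lower than higher genes under all 3 scalings. In SK-Hep1 the complex III list turned to 2 higher and 3 lower under quantile normalization and a common median.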

How the data were processed

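RNA-seq of 24 libraries (8 groups of 3, named by the labels) was used. The deposited TPM values were made by the authors with cutadapt 2.3, STAR 2.7.0d and RSEM 1.3.1 on hg38, per the submitters' processing notes; the annotation release is not given in the sources used here, and positions and sequences were taken from GENCODE 29. Log2(TPM + 1) values of genes averaging 1 TPM or more were fitted with limma 3.58.1 (R 4.3.3; eBayes with trend; statmod 1.5.0) within each line or batch, by interaction between lines, and between siControl groups, 11 comparisons, with Benjamini-Hochberg adjustment over all genes. The fit was tested on simulated data. Named genes are all mitochondrial mRNAs and rRNAs, up to 4 called genes per list, those with the lowest adjusted p, and the 3 most abundant nuclear pseudogenes; TFAM in SKBR3 and TK2 in the interaction tests were chosen after their values were seen. The members and lists were chosen with earlier results of these data known. Alternatives covered the pseudocount, the filter, scaling, the variance model, the libraries fitted, nuclear copies and each library left out. TPM keeps no depth, so precision is that of 3 libraries. Sums and ratios used Python 3.11.15 with pandas 2.3.3 and carry no test.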

Additional observations from a re-analysis of the deposited data

Results flagged for a closer look

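For 42 results the effect of siGCDH differed between lines or batches by limma's interaction test (adjusted p under 0.05). Values are differences of log2 differences. The contrasts share libraries.

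SKBR3 minus SK-Hep1 differed for all 15 genes tested: MT-RNR1 by 0.99, MT-RNR2 by 0.84, MT-ND1 by 0.95, MT-ND2 by 1.24, MT-CO1 by 0.92, MT-CO2 by 1.29, MT-ATP8 by 1.65, MT-ATP6 by 1.53, MT-CO3 by 1.20, MT-ND3 by 1.06, MT-ND4L by 1.41, MT-ND4 by 1.32, MT-ND5 by 1.20, MT-ND6 by 1.22 and MT-CYB by 1.65. The members of complex I, III, IV and ATP synthase are all among them.

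Subtracting SKBR3 from A375 batch 2 gave a difference for the same 15: MT-RNR1 at -1.08, MT-RNR2 at -0.58, MT-ND1 at -1.66, MT-ND2 at -1.53, MT-CO1 at -1.40, MT-CO2 at -1.07, MT-ATP8 at -1.42, MT-ATP6 at -1.41, MT-CO3 at -1.42, MT-ND3 at -1.04, MT-ND4L at -1.86, MT-ND4 at -1.85, MT-ND5 at -1.15, MT-ND6 at -0.997 and MT-CYB at -1.51.

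A375 batch 2 minus SK-Hep1 differed for 8 genes: MT-RNR2 at 0.26, MT-ND1 at -0.71, MT-ND2 at -0.30, MT-CO1 at -0.48, MT-CO2 at 0.22, MT-CO3 at -0.22, MT-ND4L at -0.45 and MT-ND4 at -0.53. Between the A375 batches (2 minus 1) it differed for 4: MT-ND1 by 0.47, MT-CO2 by 0.66, MT-ND3 by 0.92 and MT-ND6 by 0.97. Batch and kit cannot be told apart in that contrast.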

How the results depend on the processing

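Of 3285 alternative values for 165 member results, 2997 kept their direction and side of the threshold, 189 lost the call, 46 gained one and 53 changed sign; the cause was not tested. Calls of the 13 mRNAs went from 9 in A375 batch 1 to 4 with no filter, 1 under quantile normalization, 1 under a common median, 2 rescaled over nuclear protein-coding genes and 0 without trend (9 at an unadjusted p under 0.05). In A375 batch 2 they went from 8 to 4 with no filter, 3 without trend and 4 in the joint fit, and in SK-Hep1 from 7 to 4, 4 and 3. The A375 batch contrast (2 minus 1) went from 4 to 2 with no filter, 1 under quantile normalization, 1 under a common median, 2 rescaled, 1 without trend and 9 in the joint fit. The siControl level of SKBR3 minus A375 batch 2 went from 11 to 7 in the joint fit. The other 6 comparisons kept counts within 1.5 times, and those with 13 calls had 13 in every alternative. Leaving out 1 library gave 3 to 7 calls in A375 batch 1, 5 to 7 in batch 2, 4 to 7 in SK-Hep1, 1 to 8 for batch 2 minus batch 1, 6 to 9 for A375 batch 2 minus SK-Hep1 and 11 to 12 for the SKBR3 minus A375 level. The SKBR3 share difference was 2.58 percentage points of all TPM and 2.78 of protein-coding TPM, and the SK-Hep1 one ran from -0.277 to 0.0606 with 1 library left out. Quantile normalization, a common median and rescaling moved the median of all genes from -0.20 to -0.0011, -0.0059 and 0.073 in A375 batch 1, from 0.18 to 0.043, 0.068 and 0.18 in SK-Hep1 and from 0.29 to -0.0080, 0.061 and 0.35 in SKBR3.

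Signs changed under quantile normalization for MT-ND2 (0.15), MT-ND5 (0.20) and MT-CO1 (0.12) in A375 batch 1, MT-CYB (0.018) and MT-ND2 (0.0054) in A375 batch 2, MT-CYB (0.072) and MT-ND5 (0.014) in SK-Hep1, MT-CYB (-0.050) and MT-ND3 (-0.17) for A375 batch 2 minus SK-Hep1, MT-ND2 (-0.12), MT-ND5 (-0.15) and MT-ND4L (-0.036) for batch 2 minus batch 1, and the levels of MT-ND3 (0.029) and MT-ATP8 (0.060) for SKBR3 minus A375 batch 2 and of MT-RNR1 (0.016) for SKBR3 minus SK-Hep1. A common median did so for MT-ND5 (0.070) in A375 batch 1, MT-ND6 (-0.11), MT-CO1 (-0.077) and MT-ND4L (-0.025) in SK-Hep1, MT-RNR1 (0.017) for A375 batch 2 minus SK-Hep1, MT-ND2 (-0.021), MT-ND5 (-0.068) and MT-RNR2 (-0.034) for batch 2 minus batch 1, and the MT-ATP8 level (0.045) for SKBR3 minus A375 batch 2. Rescaling did so for MT-ND2 (0.11), MT-ND5 (0.18) and MT-CO1 (0.087) in A375 batch 1, MT-ND2 (0.0029) in batch 2, MT-ND6 (-0.0025) in SK-Hep1, and MT-ND2 (-0.11), MT-ND5 (-0.16) and MT-RNR2 (-0.12) for batch 2 minus batch 1. With 1 library left out, ranges crossed 0 for MT-ND2 (-0.032 to 0.044), MT-CYB (-0.030 to 0.028) and MT-ND5 (-0.035 to 0.10) in A375 batch 2, MT-ND6 (-0.050 to 0.080), MT-ND3 (-0.0048 to 0.23) and MT-ND5 (-0.089 to 0.042) in SK-Hep1, MT-ND3 (-0.069 to 0.16) and MT-ND5 (-0.020 to 0.13) for A375 batch 2 minus SK-Hep1, and the MT-ATP8 level (-0.072 to 0.11) for SKBR3 minus A375 batch 2.

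The replicate numbers are shared between groups. Same-numbered libraries deviated together weakly or not at all (correlations from -0.063 to 0.14), and not every library correlated best with its own number. No pairing was detected, but 3 libraries per group cannot show that there was none. With the replicate block, A375 batch 1 had 3 calls in place of 9 and batch 2 minus batch 1 had 1 in place of 4.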

Other observations

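A375 was measured with both kits, and the levels of the members differed between them in siControl cells. The ratio of mean TPM, 3′ tag over full-length, was 13.7 for MT-RNR2, 7.74 for MT-RNR1, 7.26 for MT-ND3, 5.55 for MT-ATP8 and 2.84 for MT-ND4L. It was 0.226 for MT-CO1 and 0.658 for MT-CYB. MT-ND3, MT-ATP8 and MT-ND4L are the 3 shortest mRNAs, at 346, 207 and 297 bases, and MT-CO1 has 1542. The ratio did not follow length throughout, and the part of length in it was not tested. MT-RNR2, with the highest ratio, has 1559 bases, and MT-ND5, the longest mRNA at 1812 bases, stood at 1.26. MT-ND6, at 525 bases, stood at 1.66 and MT-ND2, at 1042 bases, at 1.87. Batch and kit cannot be told apart here.

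The ratio of the rRNAs to each other also differed by line. MT-RNR2 over MT-RNR1 stood at 7.10 ± 0.313 (SD, n = 3) in SK-Hep1 siControl, 3.08 ± 0.0580 in SKBR3 and 1.97 ± 0.0245 in A375 batch 2. After knockdown it was 6.63, 2.60 and 2.36, higher in A375 batch 2 and lower in SK-Hep1 and SKBR3. In A375 batch 1 it went from 3.50 ± 0.158 to 3.32 ± 0.171 (SD, n = 3), opposite in direction to batch 2. The siControl and siGCDH groups overlapped in A375 batch 1 and in SK-Hep1. These ratios have no test.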
